A study of Homo sapiens with 6 samples.

Results

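Cholesterol is built from acetyl-CoA through the mevalonate pathway, which first makes isoprenoids and then joins them into squalene, the precursor that is closed and trimmed to sterols. Most enzymes of the route are transcribed under the sterol regulatory element-binding proteins SREBP1 and SREBP2, encoded by SREBF1 and SREBF2. The escort protein SCAP carries them from the endoplasmic reticulum to the Golgi for cleavage when membrane sterol is low, and INSIG1 holds SCAP back when sterol is plentiful. SREBP1 also drives fatty acid synthesis genes, and glioma cells are known to depend on lipid made or taken up by these routes.

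The 29 genes described here are a listed set of sterol synthesis, SREBP control, fatty acid synthesis and sterol transport genes, found by symbol and gene identifier among 27257 genes with values in any library. They comprise 8 genes of the mevalonate and isoprenoid steps, 10 genes from squalene to cholesterol, 4 genes of SREBP control, 4 fatty acid synthesis genes and 3 sterol transport genes. The series holds 6 RNA-seq libraries of U87MG, an established human malignant glioma cell line grown in serum-containing medium. The 3 U87MG-control libraries come from cells given control lentivirus for 24 hours, and the 3 U87MG-LMO2 libraries from cells given LMO2-expressing lentivirus for the same time. LMO2 is a LIM domain adaptor protein without DNA binding of its own, and the study asked which genes change when it is expressed in these cells. For LMO2 the study's methods name vectors with the CMV promoter. The share of infected cells was not given in the sources used here, and nothing in the labels says that replicates came from separate infections, so the tests measure the spread between these libraries, which may be technical.

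The libraries summed to 11428432 to 13537284 expected counts for U87MG-control, and to 14630627 to 17892955 for U87MG-LMO2. LMO2 itself was at 0.607, 0.803 and 0.378 CPM (counts scaled to library size) in U87MG-control and at 333.0, 307.0 and 877.9 CPM in U87MG-LMO2, where replicate 3 held 2.64 times the level of replicate 1. The markers of this line were present in every library, with VIM between 10910 and 13160 CPM and CD44 between 1121 and 1502 CPM. Among the other cell types checked, the endothelial gene CDH5, the T-cell gene CD3E and the astrocyte gene AQP4 were at or below 0.07 CPM in all 6 libraries, and PTPRC of leukocytes was at or below 0.603 CPM. Other markers on the same lists were detected in every library: PECAM1 at 4.02 to 5.48 CPM and KDR at 3.68 to 6.20 CPM (endothelial), SNAP25 at 24.8 to 34.0 CPM (neuronal) and CD68, a lysosomal protein used as a macrophage marker, at 292.4 to 570.1 CPM. CD68 had much the same library order as the genes below, at 524.5, 391.6 and 393.8 CPM in U87MG-control and at 337.5, 292.4 and 570.1 CPM in U87MG-LMO2, and its part in the results was not tested. U87MG-LMO2 replicate 3 stood apart from replicates 1 and 2 for many of the genes below, so results are given with all 6 libraries and again without that library. It was singled out on the values of these same genes, lying above both other U87MG-LMO2 libraries for 23 of 28. Leaving it out therefore favours falls, and the fits without it are a description and not separate support.

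Most transcripts of the sterol pathway were lower in U87MG-LMO2 replicates 1 and 2 than in any U87MG-control library. Replicate 3 lay below every control for 14 of 28 genes (50.0%, against 39.1% of all genes tested). It lay above every control for 10 (35.7%, against 37.2%). With all 6 libraries, 5 of the 28 genes tested fell (ACAT2, IDI1, FDFT1, NSDHL and STARD4) and none rose. An unadjusted p under 0.05 in the edgeR quasi-likelihood test was found for 15 of them, and for 4143 of all 16092 genes tested. Over all 16092 genes tested, 2.75% fell and 4.72% rose at the same adjusted p threshold of 0.05. The log2 fold change was below 0 for 25 of the 28 genes, with a median of -0.50, against a median of -0.01 over all genes tested. Without U87MG-LMO2 replicate 3, 21 of the 28 genes fell and none rose, with a median of -0.82, where 6.72% of 16392 genes fell. Leaving out U87MG-LMO2 replicate 2 left 3 genes below the threshold, beside 883 of all genes. Leaving out any one control library or U87MG-LMO2 replicate 1 left none in the edgeR test, beside 144 to 225 of all genes. In those fits 10 to 14 of the 28 genes had an unadjusted p under 0.05, a count not set beside its share over all genes. ABCG1, a sterol exporter, had 0 to 4 counts per library and was not tested.

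The order of the libraries was shared by most of the genes. U87MG-LMO2 replicates 1 and 2 both lay below every U87MG-control library for 24 of 28 genes (85.7%), compared with 23.9% of all genes tested. Replicate 2 was the lowest of its group for 25 genes (89.3%, against 35.2%), and replicate 3 lay above both other U87MG-LMO2 libraries for 23 genes (82.1%, against 40.2%). Relative to the U87MG-control mean, the median log2 level over the 28 genes was -0.63, -1.02 and -0.13 in U87MG-LMO2 replicates 1, 2 and 3. The control libraries were not level either, since replicate 1 was the highest control for 23 genes (82.1%, against 41.0%), and their medians were 0.19, -0.11 and -0.10. All 3 U87MG-LMO2 libraries lay below all controls for 14 of the 28 genes, while 16.6% of all genes tested showed that separation.

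**Figure D1:**
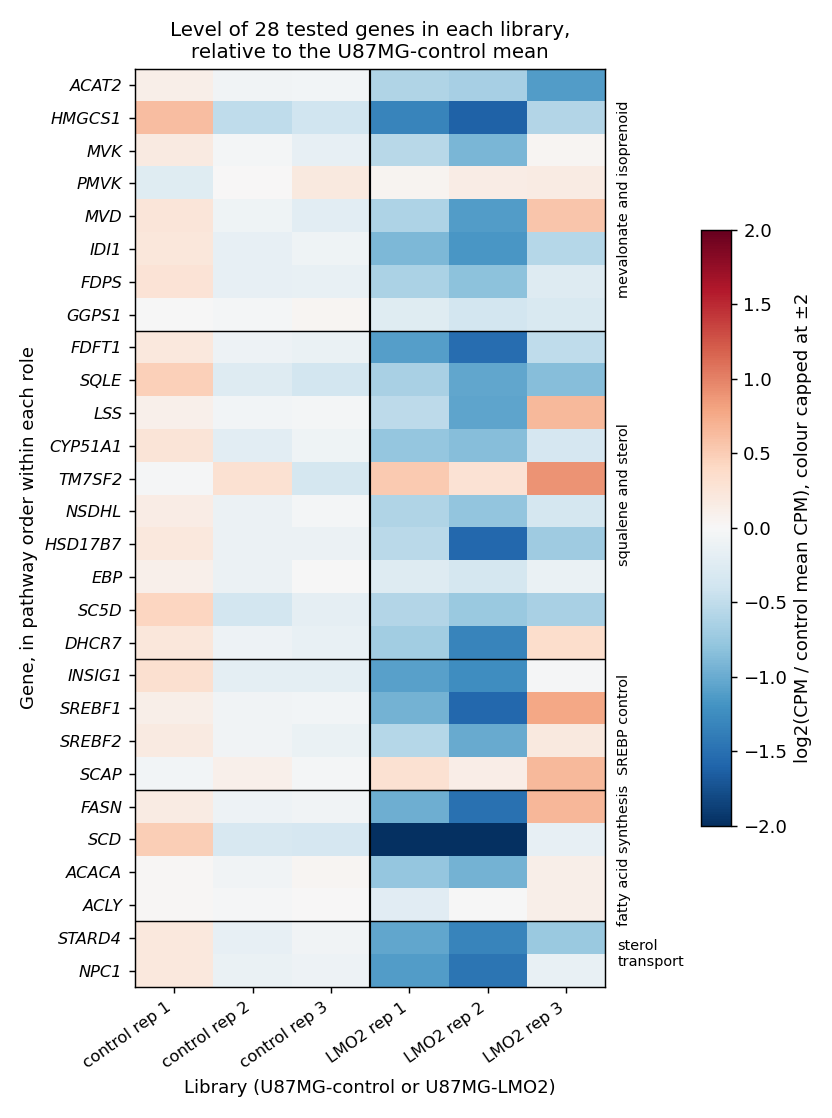
Heat map of the log2 ratio of each library's CPM to the mean CPM of the 3 U87MG-control libraries, for the 28 tested genes (rows, grouped by role) in the 6 libraries (columns). U87MG-LMO2 replicates 1 and 2 are blue (lower) for 24 genes below every control, and replicate 3 is paler or red, lying above both for 23 genes.

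To show the control regions of genes that the results turn on, stretches of up to 150 bases directly upstream of the annotated exons are given for 3 of the genes that fell (IDI1, NSDHL and STARD4), for HMGCS1 at the entry of the pathway and for SREBF2. They are in the gene's sense direction, 5′ to 3′, from RefSeq promoter windows on GRCh38.p14, ended before the gene's GENCODE v29 exons within the window. Of several windows for a gene, the one whose stretch held most CCAAT matches was printed. IDI1 has another start window upstream, at chr10:1056655-1056954, with 0 CCAAT matches. A further IDI1 window lies downstream, at chr10:1048837-1049136, with 3 matches over its whole length. The whole window of the printed IDI1 stretch holds 2, and the stretch itself 1. Capitals mark CCAAT on either strand, the sequence of nuclear factor Y boxes, and in SREBF2 also TCACNCCAC, a sterol regulatory element-type sequence. In NSDHL the last capitals hold overlapping matches, 1 on each strand. The SREBF2 stretch also lies within an exon of the antisense gene SREBF2-AS1.
HMGCS1, chr5:43313513-43313662, minus strand: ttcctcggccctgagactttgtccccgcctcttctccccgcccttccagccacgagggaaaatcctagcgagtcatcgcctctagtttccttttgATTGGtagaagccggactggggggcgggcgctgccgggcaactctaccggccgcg
IDI1, chr10:1049171-1049320, minus strand: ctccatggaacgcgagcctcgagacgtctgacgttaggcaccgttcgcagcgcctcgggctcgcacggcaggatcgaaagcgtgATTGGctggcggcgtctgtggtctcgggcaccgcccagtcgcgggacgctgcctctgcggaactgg
NSDHL, chrX:152830817-152830966, plus strand: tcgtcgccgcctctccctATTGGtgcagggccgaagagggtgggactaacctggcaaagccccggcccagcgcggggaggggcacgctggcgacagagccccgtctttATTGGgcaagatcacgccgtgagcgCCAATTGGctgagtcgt
STARD4, chr5:111512591-111512740, minus strand: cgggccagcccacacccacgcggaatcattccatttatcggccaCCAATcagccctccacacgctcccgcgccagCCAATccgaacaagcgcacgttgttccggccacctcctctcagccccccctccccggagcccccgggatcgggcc
SREBF2, chr22:41832929-41833078, plus strand: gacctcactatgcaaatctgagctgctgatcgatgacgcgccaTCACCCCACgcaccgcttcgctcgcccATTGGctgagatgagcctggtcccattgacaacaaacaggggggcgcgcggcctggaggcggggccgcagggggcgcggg

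RefSeq windows of 250 bases before to 50 after a start were on hand for 24 of the 29 genes. CCAAT, searched on both strands, occurred in the windows of 19 of these genes (79.2%), compared with 39.7% of all 27305 genes with a window. GGGCGG, the core of an Sp1-type GC box, occurred in 23 (95.8%, against 48.3%). TCACNCCAC was matched in SREBF2 alone (4.17%, against 1.39%). These are matches of letters in one window per start and were not tested as binding sites. The 27305 genes include genes not tested in these libraries, and no share over the tested genes was counted.

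The mevalonate and isoprenoid steps lead from acetyl-CoA to the prenyl diphosphates. Of 8 genes tested, 2 fell with all 6 libraries, none rose, and the median log2 fold change was -0.49. Without U87MG-LMO2 replicate 3, 6 of 8 fell, with a median of -0.72. Of all genes tested, 2.75% fell with all 6 libraries and 6.72% without replicate 3. These shares stand beside the counts of this group and of each group below.

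ACAT2, the cytosolic thiolase that makes acetoacetyl-CoA, was at 34.4, 30.2 and 30.7 CPM in U87MG-control replicates 1, 2 and 3. In U87MG-LMO2 it was at 21.0, 20.2 and 14.7 CPM. The groups did not overlap, and ACAT2 was the one gene of the 28 for which replicate 3 was the lowest library. It fell by 0.77 on the log2 scale (SE 0.15, adjusted p = 0.0256), and the fall was 0.62 without replicate 3 (log2 fold change -0.62, adjusted p = 0.0058).

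HMGCS1, the synthase that makes HMG-CoA, was at 147.7, 67.7 and 72.7 CPM in U87MG-control. In U87MG-LMO2 the values were 38.4, 31.3 and 63.8 CPM. Control replicate 1 held far more than the other controls, and U87MG-LMO2 replicate 3 came close to the lowest control. With all 6 libraries the test was not passed (log2 fold change -1.11, SE 0.34, adjusted p = 0.0848), and it was passed without replicate 3 (-1.46, adjusted p = 0.0133).

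IDI1, the isomerase that interconverts the C5 isoprenoid units, was at 75.1, 57.8 and 60.6 CPM in U87MG-control. It was at 34.7, 28.9 and 43.6 CPM in U87MG-LMO2, below every control in each library. Its fall was 1.80-fold (log2 fold change -0.85, SE 0.17, adjusted p = 0.0239), and its log2 fold change without replicate 3 was -1.02.

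FDPS, which makes farnesyl diphosphate, was also below every control in each U87MG-LMO2 library but did not pass with all 6 libraries (log2 fold change -0.55, adjusted p = 0.0882), and passed without replicate 3 (-0.73, adjusted p = 0.0091). The kinase gene MVK had a log2 fold change of -0.42 and the decarboxylase gene MVD one of -0.22, and both passed only when replicate 3 was left out (-0.72 and -0.84). MVD spanned 56.8 to 181.2 CPM within U87MG-LMO2, with replicate 3 above every control. PMVK, the second kinase of the pathway, was the highest of the group at a log2 fold change of 0.12 (SE 0.13, adjusted p = 0.612), a sign that turned with a GC-content offset, and was at 0.10 without replicate 3 (adjusted p = 0.672). GGPS1, which makes geranylgeranyl diphosphate for protein prenylation, had narrow groups of 27.7 to 29.4 CPM in U87MG-control and 22.2 to 24.2 CPM in U87MG-LMO2, and the test was not passed with 6 libraries (log2 fold change -0.30, adjusted p = 0.119) or without replicate 3 (adjusted p = 0.0808).

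From squalene to cholesterol, 10 genes were tested, of which 2 fell with all 6 libraries and 7 without U87MG-LMO2 replicate 3. Their median log2 fold change was -0.60 with all libraries and -0.79 without that one. No gene of this group rose in either fit.

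FDFT1, squalene synthase, commits farnesyl diphosphate to sterols and was at 392.4, 317.7 and 309.3 CPM in U87MG-control. It was at 158.1, 118.3 and 240.2 CPM in U87MG-LMO2, so that replicate 3 was the highest of its group yet below every control. FDFT1 fell 1.97-fold (log2 fold change -0.98, SE 0.23, adjusted p = 0.0410), and the log2 fold change was -1.30 without replicate 3. Among the 18 synthesis enzymes it had the highest length-normalised level in U87MG-control, at 155.8 ± 20.8 FPKM (fragments scaled to transcript length and library size, SD, n = 3).

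SQLE, squalene epoxidase, a rate-limiting step of the sterol branch, was at 113.4, 67.7 and 62.7 CPM in U87MG-control and 52.1, 39.5 and 44.9 CPM in U87MG-LMO2. Here replicate 3 was not set apart from replicates 1 and 2, and control replicate 1 was far above the other controls. The log2 fold change of -0.83 (SE 0.22) narrowly missed the threshold with all 6 libraries (adjusted p = 0.0558) and was -0.82 without replicate 3 (adjusted p = 0.0454).

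NSDHL, the dehydrogenase that helps remove the methyl groups at carbon 4, was at 80.3, 66.5 and 70.4 CPM in U87MG-control. Its values in U87MG-LMO2 were 47.9, 41.8 and 56.7 CPM, all below the controls. The log2 fold change was -0.57 (SE 0.13, adjusted p = 0.0403), a 1.48-fold fall, and -0.69 without replicate 3.

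LSS, which closes squalene epoxide into lanosterol, and DHCR7, which reduces 7-dehydrocholesterol to cholesterol, had the widest spread of the sterol enzymes in U87MG-LMO2. LSS was at 203.6, 141.2 and 458.2 CPM there, against 281.8 to 313.0 CPM in U87MG-control, so replicates 1 and 2 lay below and replicate 3 above every control. DHCR7 showed the same order, at 193.0, 125.7 and 399.2 CPM against 282.0 to 365.8 CPM. Their log2 fold changes were -0.13 and -0.39 with all libraries (adjusted p = 0.849 and 0.527) and -0.76 and -0.97 without replicate 3 (adjusted p = 0.0077 and 0.0074).

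CYP51A1, the lanosterol demethylase, and HSD17B7, the 3-ketoreductase, lay below every control in all 3 U87MG-LMO2 libraries without passing (adjusted p = 0.0577 and 0.0818), and both passed without replicate 3 (adjusted p = 0.0050 and 0.0495). EBP, the sterol isomerase, and SC5D, the desaturase that follows it, were likewise below every control in each library, with log2 fold changes of -0.24 and -0.65, but passed in neither fit (-0.30 and -0.65 without replicate 3). TM7SF2, a sterol reductase whose step has another enzyme, was scarce at 0.687 ± 0.158 FPKM in U87MG-control and had the highest log2 fold change of the 28 genes at 0.59 (SE 0.30, adjusted p = 0.252), or 0.41 without replicate 3 (adjusted p = 0.452).

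**Figure D2:**
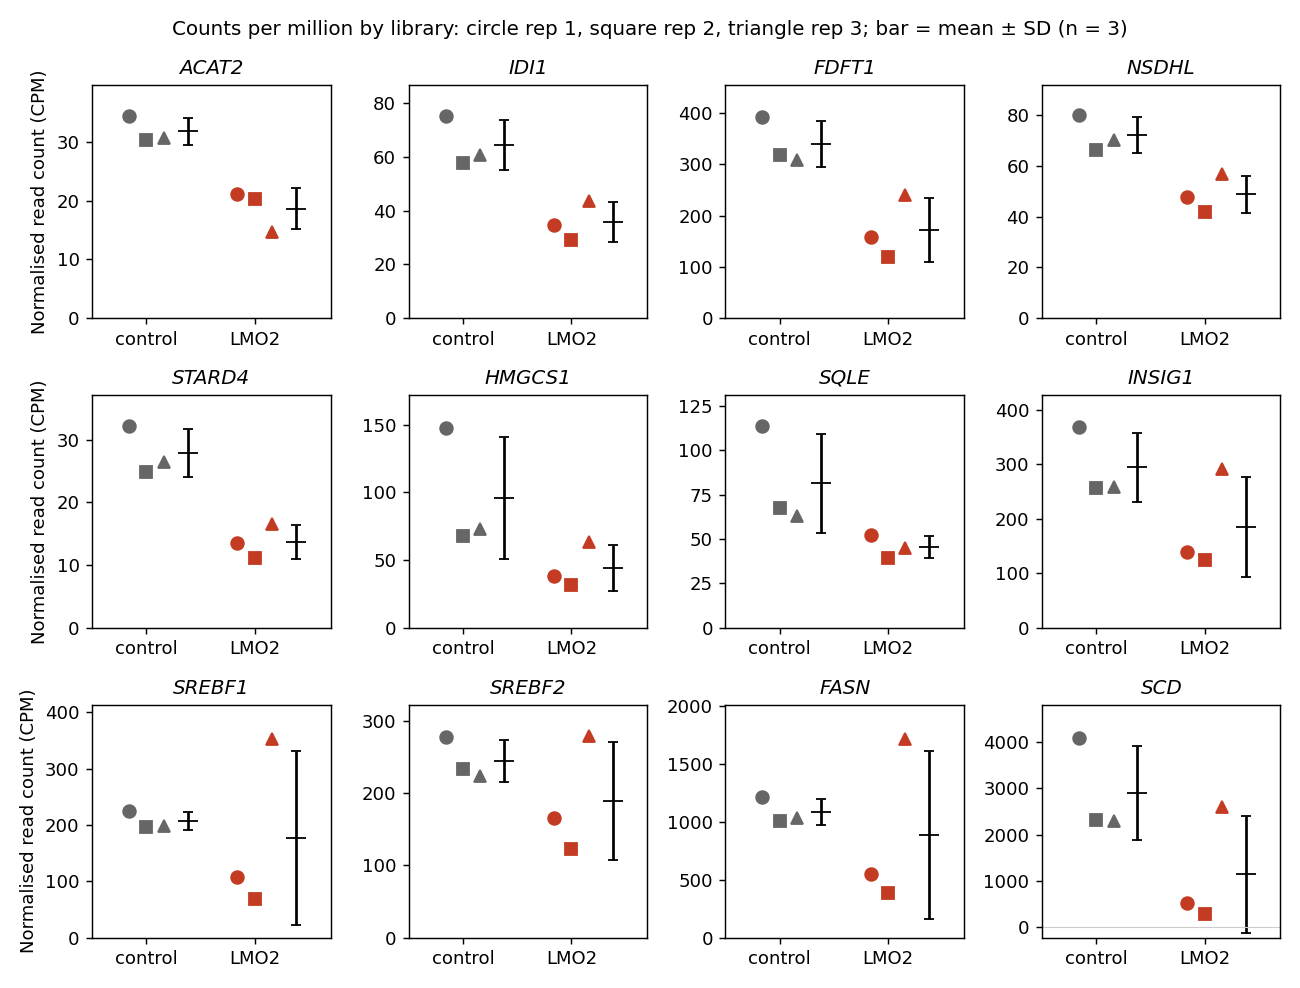
CPM of 12 genes in the 3 U87MG-control libraries (grey) and the 3 U87MG-LMO2 libraries (red), on linear axes, with circles, squares and triangles for replicates 1, 2 and 3 and bars for the mean ± SD (n = 3). The first 5 genes are those that fell with all 6 libraries, and in SREBF1, SREBF2 and FASN the triangle of U87MG-LMO2 replicate 3 lies above every control.

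The SREBP control genes did not move alike. None of the 4 passed with all 6 libraries, and 3 of 4 fell without U87MG-LMO2 replicate 3, when the median log2 fold change went from -0.30 to -0.96.

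SREBF1 was at 225.4, 196.0 and 198.9 CPM in U87MG-control and at 107.9, 69.4 and 353.1 CPM in U87MG-LMO2. Replicates 1 and 2 lay far below the controls and replicate 3 far above, at 3.27 times the level of replicate 1. With all libraries the log2 fold change was -0.23 (SE 0.49, adjusted p = 0.805), and without replicate 3 it was -1.22 (adjusted p = 0.0019).

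SREBF2, whose product acts chiefly on sterol synthesis genes, was at 277.4, 232.9 and 223.5 CPM in U87MG-control and at 165.1, 122.2 and 279.1 CPM in U87MG-LMO2. In CPM, replicate 3 was marginally above the highest control, and at 48.16 FPKM it lay inside the control range of 41.74 to 52.31 FPKM. Its log2 fold change was -0.37 (SE 0.26, adjusted p = 0.403) with all libraries and -0.77 (adjusted p = 0.0074) without replicate 3.

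INSIG1, itself a target of the SREBPs, was at 368.4, 257.1 and 258.4 CPM in U87MG-control and at 138.5, 125.1 and 291.3 CPM in U87MG-LMO2. Replicate 3 fell inside the control range while replicates 1 and 2 lay well below it. INSIG1 had a log2 fold change of -0.67 (SE 0.31, adjusted p = 0.208), and -1.16 (adjusted p = 0.0019) without replicate 3.

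SCAP went the other way, at 112.5, 125.3 and 114.2 CPM in U87MG-control and 144.6, 128.7 and 184.1 CPM in U87MG-LMO2. It was the one gene of the 28 with every U87MG-LMO2 library above every control (3.57%, against 17.5% of all genes tested). SCAP passed the test neither with 6 libraries (log2 fold change 0.38, SE 0.14, adjusted p = 0.131) nor without replicate 3 (0.22, adjusted p = 0.138). With a GC-content offset its log2 fold change was 0.15 (adjusted p = 0.387).

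The 4 fatty acid synthesis genes included SCD, which had the greatest contrast between U87MG-LMO2 libraries of the 28 genes tested. None of the 4 passed with all 6 libraries (median log2 fold change -0.37), and 3 of 4 fell without replicate 3 (median -1.03).

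SCD, the desaturase that makes monounsaturated fatty acids, had the highest length-normalised level of the 29 genes in U87MG-control (528.9 ± 186.1 FPKM, SD, n = 3). It was at 4087, 2318 and 2307 CPM in U87MG-control. In U87MG-LMO2 it was at 532.5, 293.0 and 2595 CPM. Replicates 1 and 2 were 5.45-fold and 9.91-fold below the control mean, while replicate 3 lay inside the control range. The log2 fold change was -1.35 (SE 0.69, adjusted p = 0.256) with all libraries and -2.81 (adjusted p = 0.0008) without replicate 3.

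FASN, the fatty acid synthase, was at 1213, 1009 and 1031 CPM in U87MG-control and at 553.1, 386.9 and 1720 CPM in U87MG-LMO2. Like SREBF1, it lay below every control in replicates 1 and 2 and above every control in replicate 3. Its log2 fold change was -0.29 (SE 0.46, adjusted p = 0.727), and -1.21 (adjusted p = 0.0011) without replicate 3.

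ACACA, the acetyl-CoA carboxylase of cytosolic synthesis, followed the same order in CPM. It was at 134.4 and 120.0 CPM in replicates 1 and 2 against 221.0 to 236.5 CPM in U87MG-control, with 251.6 CPM in replicate 3. At 23.7 FPKM, replicate 3 lay inside the control range of 22.83 to 24.38 FPKM. Its log2 fold change was -0.45 (adjusted p = 0.286) with all libraries and -0.86 (adjusted p = 0.0005) without replicate 3. ACLY, which supplies cytosolic acetyl-CoA from citrate, had a log2 fold change of -0.04 (SE 0.11, adjusted p = 0.862), and -0.11 (adjusted p = 0.389) without replicate 3, with all 6 libraries between 631.1 and 796.0 CPM.

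Of the sterol transport genes, STARD4, a carrier of sterol between membranes, had the lowest adjusted p of the 28 genes. It was at 32.1, 24.8 and 26.5 CPM in U87MG-control. In U87MG-LMO2 it was at 13.5, 11.2 and 16.6 CPM, below every control in each library. STARD4 fell 2.02-fold (log2 fold change -1.01, SE 0.17, adjusted p = 0.0145), and its log2 fold change without replicate 3 was -1.17 (adjusted p = 0.0014).

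NPC1, which exports cholesterol from lysosomes, was at 906.5, 717.2 and 732.5 CPM in U87MG-control and 360.3, 284.0 and 711.7 CPM in U87MG-LMO2. Replicate 3 was only just below the lowest control. NPC1 had a log2 fold change of -0.80 (SE 0.30, adjusted p = 0.136), and -1.29 (adjusted p = 0.0006) without replicate 3. ABCG1 was at 0, 0.07 and 0.08 CPM in U87MG-control and at 0.24, 0.07 and 0.06 CPM in U87MG-LMO2, too few counts to compare.

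**Figure D3:**
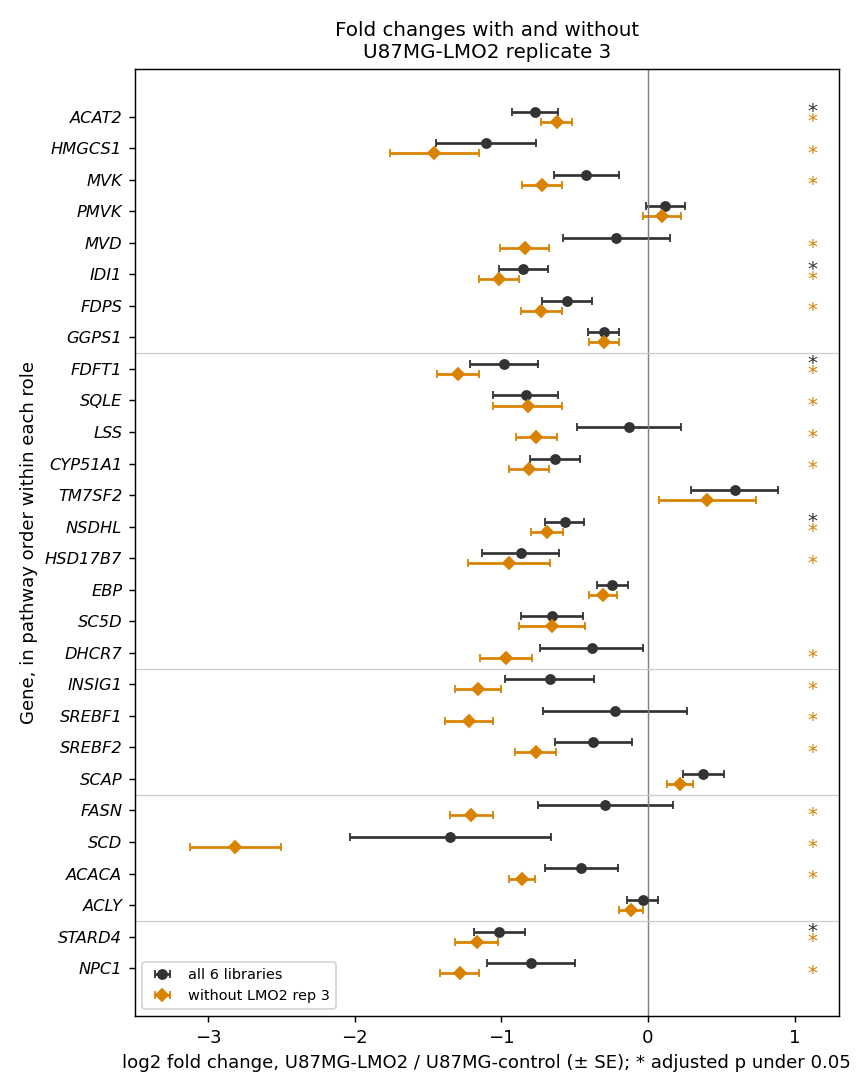
Log2 fold change of U87MG-LMO2 against U87MG-control (horizontal axis, ± SE) for the 28 tested genes in pathway order, with all 6 libraries (black circles) and without U87MG-LMO2 replicate 3 (orange diamonds). Stars mark an adjusted p under 0.05, for 5 genes in the first fit and 21 in the second.

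Summed over the 18 synthesis enzymes, the length-normalised level was 975.8, 772.4 and 769.8 FPKM in the U87MG-control libraries and 525.1, 415.7 and 741.3 FPKM in the U87MG-LMO2 libraries. The summed level of the fatty acid synthesis genes was 1080, 730.1 and 734.0 FPKM in U87MG-control and 321.6, 276.2 and 808.1 FPKM in U87MG-LMO2. On this scale replicate 3 was just below the lowest control for the enzymes and inside the control range for the fatty acid genes. Summed as CPM, the enzymes were at 2165, 1691 and 1687 in U87MG-control and at 1135, 878.2 and 1879 in U87MG-LMO2, which puts replicate 3 inside the control range.

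Relative to the control mean, the groups of genes differed in where replicate 3 lay. Its median log2 level was -0.28 over the mevalonate and isoprenoid genes and -0.34 over the squalene and sterol genes. It was 0.42 over the SREBP control genes and 0.12 over the fatty acid synthesis genes.

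The base composition of the transcripts moved with the distance of replicate 3 from the other U87MG-LMO2 libraries. The GC content of the 28 genes ran from 34.2% to 65.3%, with a median of 50.4% against 48.3% over all genes tested. Across the 28 genes, the log2 difference between replicate 3 and the mean of replicates 1 and 2 correlated with GC content at a Pearson r of 0.35, and across all tested genes with a known GC content at 0.31. These are correlations across genes of the same 3 libraries, and genes are not independent replicates. The 10 genes above 57% GC had a median difference of 1.17 on the log2 scale (0.07 to 2.03), against 0.23 over 3206 tested genes of that range. The 18 genes at or below 57% had a median of 0.45 (-0.49 to 2.72), against -0.07 over 11252 genes. In both ranges the median for these genes was higher than that for all tested genes. Replicate 3 had been singled out as high on these same genes, so this difference is a description only. The split at 57% was a single choice.

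**Figure D4:**
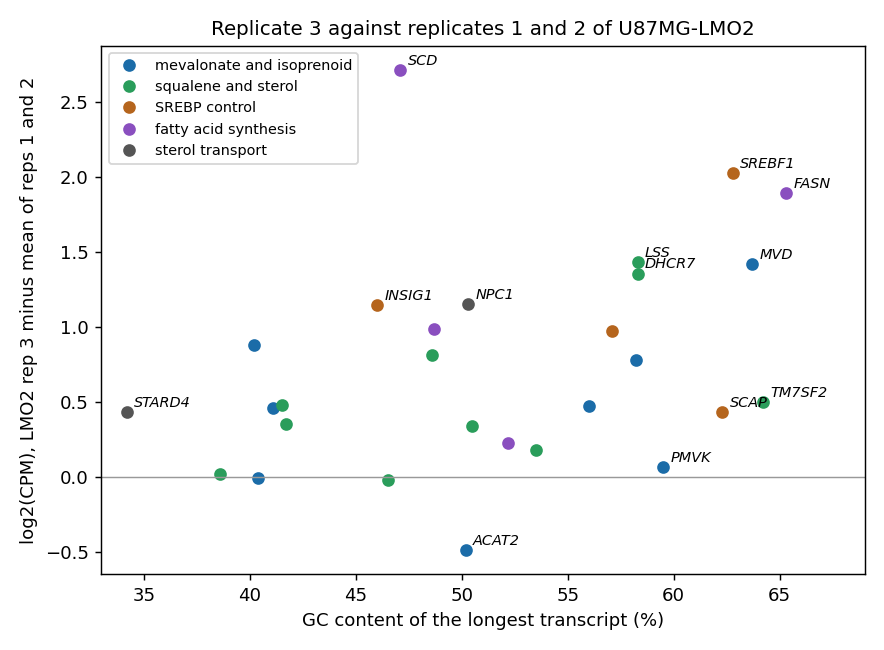
Log2 difference in CPM between U87MG-LMO2 replicate 3 and the mean of replicates 1 and 2 (vertical axis) against the GC content of the longest transcript in percent (horizontal axis), for the 28 tested genes coloured by role. SCD, at 47.1% GC, has the largest difference at 2.72, and SREBF1 and FASN, above 60% GC in the plot, follow at 2.03 and 1.89.

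When each gene's counts were adjusted for GC content, 4 of the 28 genes fell (ACAT2, FDPS, FDFT1 and NSDHL), where 2.52% of 14458 genes did, and the median log2 fold change was -0.59. IDI1 and STARD4 then missed the threshold (adjusted p = 0.0712 and 0.0799). With that adjustment and without replicate 3, 21 of the 28 genes fell, where 7.76% of 14650 genes did. LMO2 RNA was likewise highest in replicate 3. The parts of base composition, of LMO2 level and of that library's preparation in the results were not tested.

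Of 63 other genes listed for the pathway, 58 were tested, and their median log2 fold change was -0.02. With all 6 libraries 3 fell and 3 rose, beside 2.75% and 4.72% of all genes tested. Without U87MG-LMO2 replicate 3, 14 fell and 6 rose, beside 6.72% and 7.97% of all genes tested. The same shares stand beside the counts of each list below, and a single call in a list is not read as a result about that list. The 10 tested genes of SREBP processing and endoplasmic reticulum control held none that passed with 6 libraries in the edgeR test (median -0.05). Of them, 2 had an unadjusted p under 0.05, beside 4143 of all 16092 genes tested. Without replicate 3, 1 of the 10 rose (median -0.02).

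Among 13 other fatty acid and lipid genes, 1 fell and 1 rose with all 6 libraries (median -0.20), and 6 fell and 1 rose without replicate 3 (median -0.30). ELOVL6, an elongase of long-chain fatty acids, was at 61.8, 52.1 and 51.5 CPM in U87MG-control and 37.6, 41.8 and 40.6 CPM in U87MG-LMO2. It fell with all libraries (log2 fold change -0.46, SE 0.11, adjusted p = 0.0431) and without replicate 3 (-0.47, adjusted p = 0.0205).

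ACACB, the mitochondrial-membrane acetyl-CoA carboxylase whose product restrains fatty acid oxidation, was at 29.1, 32.6 and 33.1 CPM in U87MG-control and 51.2, 50.4 and 60.6 CPM in U87MG-LMO2. It rose by 0.77 on the log2 scale (SE 0.12, adjusted p = 0.0109), and by 0.68 without replicate 3 (adjusted p = 0.0023), while its cytosolic relative ACACA lay below the controls in replicates 1 and 2. LPIN1, which makes diacylglycerol and was picked after its values were seen, had the lowest log2 fold change of these 13 genes, at -1.06 with all libraries (adjusted p = 0.0735) and -1.53 without replicate 3 (adjusted p = 0.0009).

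Of 14 further genes of sterol uptake, transport and storage, 1 fell with all 6 libraries and 4 without replicate 3, and none rose in either fit (median -0.19 in both). OSBPL1A, an oxysterol-binding protein-like gene, was at 54.5, 59.8 and 62.0 CPM in U87MG-control and 43.9, 44.8 and 43.4 CPM in U87MG-LMO2. Its log2 fold change was -0.42 with all libraries (adjusted p = 0.0391) and -0.41 without replicate 3 (adjusted p = 0.0184).

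Of 9 genes of the liver X receptors and oxysterols, 1 rose and none fell with all 6 libraries (median 0.11), and 1 rose and 3 fell without replicate 3 (median -0.05). RXRA, the partner of the liver X receptors and of other nuclear receptors, was at 34.6, 43.1 and 44.1 CPM in U87MG-control and 92.1, 88.5 and 80.3 CPM in U87MG-LMO2. It rose 2.14-fold (log2 fold change 1.10, SE 0.12, adjusted p = 0.0036), with replicate 3 close to the other libraries of its group, and the log2 fold change without that library was 1.15 (adjusted p = 0.0005).

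The 12 genes that use isoprenoids had a median log2 fold change of -0.01, with 1 fall and 1 rise, and of 0.12 without replicate 3, with 1 fall and 3 rises. FNTA, the shared alpha subunit of a pair of protein prenyltransferases, was at 44.5, 49.5 and 51.2 CPM in U87MG-control and 33.6, 32.5 and 36.9 CPM in U87MG-LMO2. It fell in both fits (log2 fold change -0.50, adjusted p = 0.0330, and -0.55, adjusted p = 0.0071, without replicate 3). RABGGTA, the alpha subunit of the enzyme that prenylates Rab proteins, was at 13.2, 16.3 and 13.3 CPM in U87MG-control and 22.1, 22.3 and 28.4 CPM in U87MG-LMO2. Its rise was 0.77 on the log2 scale (adjusted p = 0.0252) and 0.63 without replicate 3 (adjusted p = 0.0106).

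With the GC-content offset, which left 3.83% of 14458 genes higher, ELOVL6, OSBPL1A and FNTA no longer passed (adjusted p = 0.121, 0.128 and 0.241), and RXRA, ACACB and RABGGTA did.

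**Figure D5:**
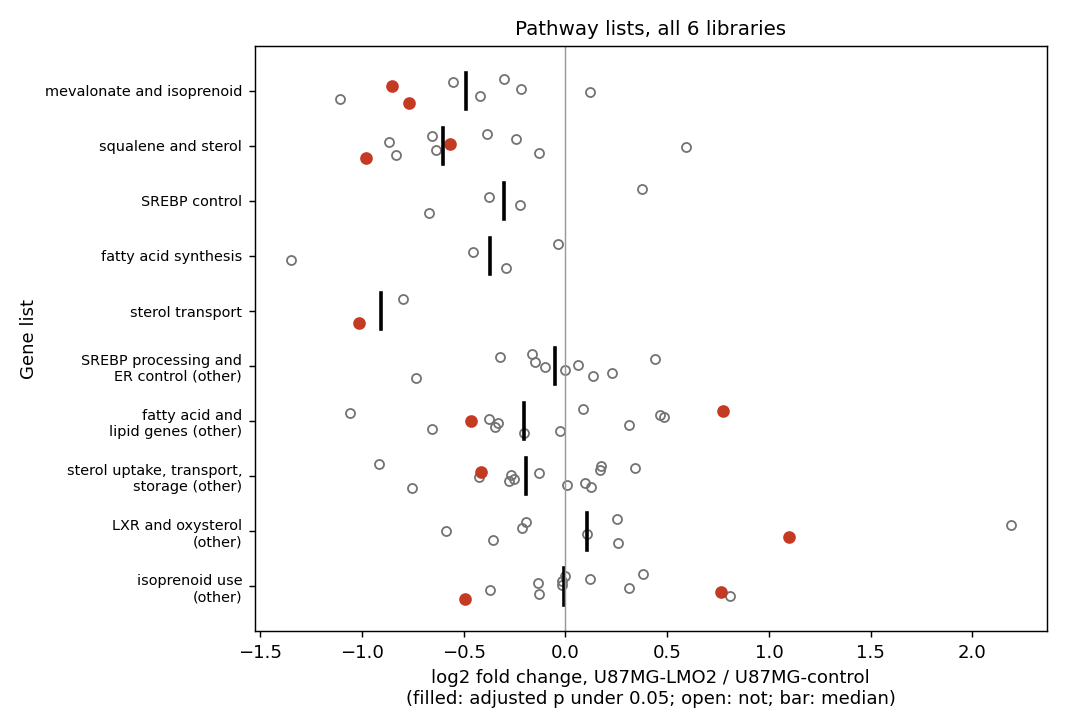
Log2 fold change of U87MG-LMO2 against U87MG-control with all 6 libraries (horizontal axis) for each tested gene of the 5 roles and of the 5 other pathway lists (rows), filled red where the adjusted p was under 0.05 and with a black bar at the median. The medians of the sterol enzyme rows lie at -0.49 and -0.60, and those of the 5 other lists between -0.20 and 0.11.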

How the data were processed

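RNA-seq was measured in 3 U87MG-control and 3 U87MG-LMO2 libraries. The authors deposited, per library, expected counts and FPKM values per gene (Bowtie2, BWA and GRCh38.p12 are named in the submitters' processing notes, and the counting program is not given in the sources used here). A comparison table also deposited by the authors holds their fold changes and probabilities, which were not used. In the table of U87MG-LMO2 replicate 3, 3 lines could not be read, and 134 genes whose library values did not give the deposited group mean within 0.001 were left out (0.35% of U87MG-control counts, none of the 29 genes). Symbols came from RefSeq (89.6% of genes matched).

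Expected counts were rounded, filtered (filterByExpr) and normalised by TMM, and groups were compared in edgeR 4.0.16 (R 4.3.3) with the quasi-likelihood test, 2-sided, with Benjamini-Hochberg adjustment over all genes tested. CPM are counts scaled to a common TMM-adjusted library size. The total counts per library, set the precision. The code was tested on simulated data. Alternatives were DESeq2 1.42.0, limma 3.58.1 on log2(FPKM + 1) and log2(FPKM + 0.1), other filters and normalization, a replicate block, leaving out each library, and a GC-content offset (lowess, span 0.3). The offset without U87MG-LMO2 replicate 3 was added after seeing the data.

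The genes and lists were chosen with earlier results of these data known. Values per library were given for those of the 29 genes that passed with all 6 libraries and for HMGCS1, SQLE, INSIG1, SREBF1, SREBF2, SCAP, SCD, FASN, STARD4, NPC1 and ABCG1. Other genes were given by range and count with examples per role, some named beyond that rule after their values were seen, and of the other pathway genes up to 4 per list that passed were named.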

Additional observations from a re-analysis of the deposited data

How the results depend on the processing

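The direction of the 28 fold changes and the 5 calls held with upper-quartile normalization and with a minimum of 10 counts in every library. DESeq2 called 9 of the genes and the fit with no filter on low counts 9, each with the 5 among them. These fits called 1685 and 1433 of all genes, beside 1203 in the main fit. Limma on FPKM called 6 of the genes, beside 890 of all genes on log2(FPKM + 1) and 875 on log2(FPKM + 0.1). Leaving out 1 library at a time moved the number called between 0 and 21. It was 0 without any one U87MG-control library or without U87MG-LMO2 replicate 1, beside 144 to 225 of all genes. In these edgeR fits the smallest adjusted p was 0.0527 to 0.0693, and 10 to 14 genes had an unadjusted p under 0.05. The number called was 3 without U87MG-LMO2 replicate 2 and 21 without replicate 3, beside 883 and 2409 of all genes. Those fits have fewer samples, and their counts of unadjusted p under 0.05 were not set beside shares over all genes. With the GC-content offset and without replicate 3, the counts were 21 of these genes, 20 other pathway genes and 2324 of all genes. Other pathway genes called numbered 6, with 3 under the GC-content offset and 1 to 20 when a library was left out, and all genes called ranged from 144 to 2409. PMVK turned to a log2 fold change of -0.051 with the offset and -0.009 with the offset and without replicate 3. Leaving out 1 library gave ranges of -0.84 to 0.086 for MVD, -0.76 to 0.18 for LSS, -1.22 to 0.16 for SREBF1, -1.21 to 0.069 for FASN and -0.11 to 0.057 for ACLY. The cause was not tested.

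Between libraries of the same number, deviations from the group means correlated at -0.12, -0.003 and -0.04. With so few libraries per group this cannot settle whether libraries of the same number were handled together, and the labels do not say. With the replicate block, 5 of the genes passed, 4 of them among the 5 above, with 2 other pathway genes and 576 of all genes.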
